A study of Mus musculus with 24 samples.

Results

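The *Dlk1*-*Dio3* imprinted cluster is a stretch of mouse chromosome 12 in which protein-coding genes are expressed from the paternal chromosome and noncoding RNAs from the maternal chromosome. Its 6 members here were *Dlk1*, *Rtl1* and *Dio3*, the paternally expressed genes (PEGs), and *Meg3*, *Rian* and *Mirg*, the maternally expressed genes (MEGs). They were chosen by name from the 49452 genes of the table. The symbols of *Meg3*, *Rian* and *Mirg* are blank there, and these 3 genes were found by their Ensembl identifiers.

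RNA was sequenced in 24 libraries of primary precursor cells of the stromal-vascular fraction of C57BL/6 mice, taken from brown adipose tissue (BAT) or white adipose tissue (vWAT). The cells received a non-targeting control siRNA (siCtrl) or an siRNA against the lincRNA *H19* (siH19) by nucleofection, and were collected before differentiation (d0) or at day 3 of it (d3), with 3 libraries in each of the 8 groups. Induction of both depots used insulin, dexamethasone, rosiglitazone and IBMX, to which indomethacin and triiodothyronine were added for BAT, and the later medium held rosiglitazone for vWAT and triiodothyronine for BAT. Depot and medium can therefore not be told apart at d3, nor can day and medium within a depot. The labels also name the BAT and vWAT libraries as different series, without saying what a series is. Depot and series cannot be told apart on either day. The labels name 1 *H19* siRNA and do not say whether the replicates are separate animals or cultures, so that p-values measure the spread between libraries, which may be technical.

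A methylated control region upstream of *Meg3* keeps the RNAs of the paternal copy silent, and *Dlk1*, *Rtl1* and *Dio3* are expressed mainly from the paternal copy. *Dlk1* encodes a membrane protein related to the Notch ligands that marks preadipocytes (it is also called Pref-1) and restrains their differentiation. *Dio3* encodes the deiodinase that inactivates thyroid hormone. *Rtl1* derives from a retrotransposon, *Meg3* is a long noncoding RNA, and *Rian* and *Mirg* are long transcripts that carry many small nucleolar RNAs and microRNAs in their introns. The data do not separate the parental alleles, so that all values are sums over both.

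On GRCm38 the cluster ran over 828275 bases, from the start of *Dlk1* (ENSMUSG00000040856, chromosome 12, 109452823 to 109463336) to the end of *Dio3* (ENSMUSG00000075707, 110279068 to 110281097). *Meg3* (ENSMUSG00000021268) lies at 109541001 to 109571726, *Rian* (ENSMUSG00000097451) at 109603940 to 109661716 and *Mirg* (ENSMUSG00000097391) at 109729764 to 109749460, all on the plus strand. *Rtl1* (ENSMUSG00000085925, 109589194 to 109600330) is the only member on the minus strand. The sequences of 150 bases before the RefSeq starts (GRCm38.p6) of the 4 most abundant members are given because these genes fell together from d0 to d3. Capitals mark matches on either strand to the TATA box TATAAA, the CCAAT box CCAAT, the GC box GGGCGG, the core TGCCGC of the motif of the imprint-keeping factor ZFP57, and the nuclear receptor motif AGGTCA.
Dlk1 (chr12:109452673-109452822, plus strand): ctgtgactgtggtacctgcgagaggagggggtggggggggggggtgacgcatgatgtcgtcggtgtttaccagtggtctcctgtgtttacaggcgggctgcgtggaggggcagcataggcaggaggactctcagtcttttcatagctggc
Meg3 (chr12:109540846-109540995, plus strand): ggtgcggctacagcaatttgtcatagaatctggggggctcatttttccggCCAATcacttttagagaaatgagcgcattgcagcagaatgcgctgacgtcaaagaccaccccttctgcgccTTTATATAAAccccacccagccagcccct
Rian (chr12:109603795-109603944, plus strand): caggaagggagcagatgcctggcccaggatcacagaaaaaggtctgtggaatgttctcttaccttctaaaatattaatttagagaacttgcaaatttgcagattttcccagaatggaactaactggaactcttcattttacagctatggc
Dio3 (chr12:110279080-110279229, plus strand): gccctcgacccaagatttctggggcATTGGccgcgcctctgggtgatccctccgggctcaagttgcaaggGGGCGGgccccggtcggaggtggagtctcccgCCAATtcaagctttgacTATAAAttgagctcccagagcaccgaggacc

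Among 32851 promoter windows of 150 bases, 7.57% held TATAAA, 24.5% CCAAT, 28.6% GGGCGG, 5.95% TGCCGC and 8.58% AGGTCA. The window of *Dio3* held TATAAA 31 bases before its start, CCAAT at 48 bases and in reverse at 125 bases, and GGGCGG at 80 bases. That of *Meg3* held TATAAA 25 bases before the start, overlapping a reverse match at 29 bases, and CCAAT at 100 bases. None of the 5 motifs matched in the windows of *Dlk1* and *Rian*. The dinucleotide CG occurred 9 times in the *Dio3* window, 6 times in those of *Dlk1* and *Meg3*, and 0 times in that of *Rian*, against a median of 4 over all windows. RefSeq lists a second start of *Meg3*, at 109545398, whose window (109545248 to 109545397) held 0 CG pairs and AGGTCA in reverse at 141 bases. The *Meg3* sequence shown is that of the first start.

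RefSeq places 58 microRNA hairpins with 114 mature arms between *Dlk1* and *Dio3*. Of these, 26 arms of 14 hairpins lie within *Mirg*, 6 arms of 3 hairpins within *Rian*, 3 arms within *Meg3*, and 11 arms of 6 hairpins opposite *Rtl1*. Within *Rtl1* lie 2 arms of 1 hairpin. Most, 66 arms of 33 hairpins, lie outside the annotated spans of the members. The arms of the only microRNA genes of the cluster that reached 1 FPKM in at least 3 libraries are shown first, *Mir433* opposite *Rtl1* and *Mir3072* within *Mirg*. They are followed by the only pair of arms within *Mirg* that share a seed. Capitals mark the seed, bases 2 to 8.
mmu-miR-433-5p: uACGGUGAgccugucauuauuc
mmu-miR-433-3p: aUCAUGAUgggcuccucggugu
mmu-miR-3072-5p: aGGGACCCcgagggagggcagg
mmu-miR-3072-3p: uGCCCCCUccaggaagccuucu
mmu-miR-453: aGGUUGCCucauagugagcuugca
mmu-miR-496a-5p: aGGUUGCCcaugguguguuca

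Of the 104 distinct seeds of the cluster, 9 were shared by at least 2 arms. Poly-A enriched libraries do not measure mature microRNAs. The values below describe the members, whose annotated spans hold only a part of the hairpins.

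Values are FPKM, fragments per kilobase of transcript normalised to library size, and levels are therefore given per length. The relative depth of the libraries, read from the steps between low values, was 0.826 to 0.983 in BAT and 1.017 to 1.168 in vWAT, and the number of fragments behind a value is unknown. The brown precursor marker *Zic1* was below 1 FPKM in all vWAT libraries, and the white visceral precursor markers *Wt1*, *Tcf21* and *Hoxc10* were below 1 FPKM in all BAT libraries. Not all genes of these lists separated the depots in this way. *Ebf2* of the brown list reached 1 FPKM in at least 1 library of every vWAT group. *Hoxc8* of the white list did so in every BAT group, and *Hoxc9* in BAT siH19 cells at d0. *H19* was lower in siH19 in all 4 settings, where its mean was 3.35% (BAT d0), 15.3% (BAT d3), 10.3% (vWAT d0) and 6.15% (vWAT d3) of that in siCtrl. On the scale of log2(FPKM + 1), where a low level such as the 0.53 FPKM left in vWAT at d3 makes a change come out too small, *H19* was lower by 4.63, 2.64, 2.56 and 2.68, with adjusted p of 0.0022, 0.0013, 0.0046 and 0.0096 from limma. It was 11.1-fold more abundant in BAT than in vWAT siCtrl cells at d0.

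*Rian* was the most abundant member at d0 in BAT siCtrl cells, with 217, 228 and 248 FPKM in the 3 libraries. *Dio3* followed with 101, 77.9 and 86.9 FPKM. *Meg3* had 82.7, 55.8 and 95.6 FPKM, and its range overlapped that of *Dio3*. *Dlk1* had 51.0, 41.7 and 43.8 FPKM, below every *Meg3* library. *Mirg* had 13.9, 9.50 and 16.2 FPKM. *Rtl1* stayed below 1 FPKM in all 24 libraries, between 0.0073 and 0.29 FPKM, and was not tested.

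In vWAT siCtrl cells at d0 the order was the same, but *Dio3* stood close to *Rian*. *Dio3* had 200.1, 194 and 187 FPKM there, and *Rian* 205, 210.0 and 226 FPKM, so that the ranges did not overlap. In siH19 cells of the same depot and day the 2 ranges did overlap. *Meg3* had 101, 113 and 107 FPKM, *Dlk1* 45.2, 51.0 and 60.8 FPKM, and *Mirg* 17.4, 12.1 and 15.4 FPKM.

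**Figure D1:**
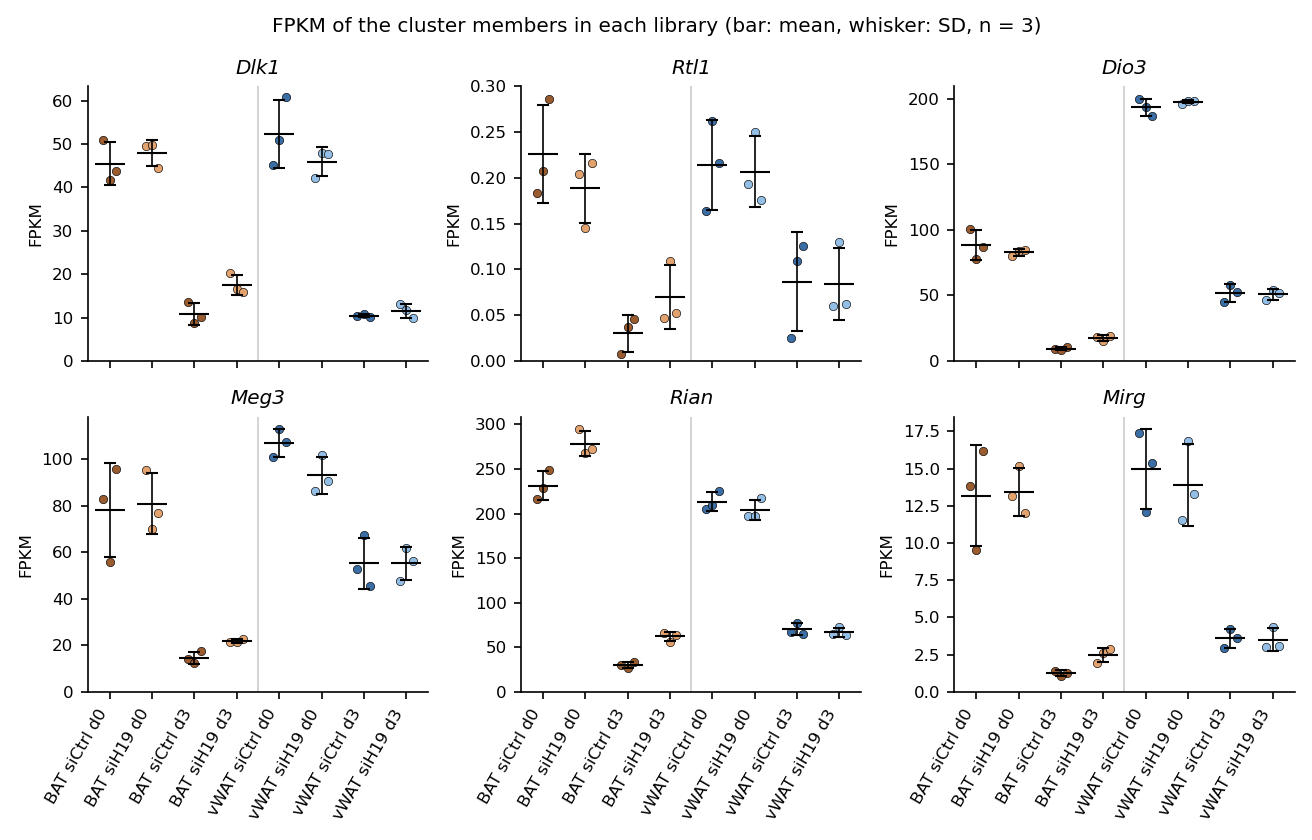
FPKM (vertical axes, linear, from 0) of the 6 members in each of the 24 libraries by depot, siRNA and day (horizontal axes), with the group mean (bar) and SD (whisker, n = 3). In every panel the d3 means lie below the d0 means of the same depot and siRNA, and within BAT at d3 the siH19 libraries of the members other than *Rtl1* lie above the siCtrl libraries.

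All 5 members tested fell from d0 to d3 in both depots and with both siRNAs. In BAT siCtrl cells *Dio3* was at 9.0, 8.41 and 10.8 FPKM at d3, 10.6% of its d0 level, and *Rian* was at 30.5, 27.0 and 33.6 FPKM, or 13.2%. *Mirg* was at 1.43, 1.07 and 1.27 FPKM (9.54%). *Meg3* was at 14.0, 12.6 and 17.4 FPKM (18.8%). *Dlk1* was at 13.7, 8.70 and 10.2 FPKM (23.9%). No d3 library reached a d0 library for any of these 5 genes, a separation also seen in 43.2% of the genes tested.

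Changes are given as differences of log2(FPKM + 1), where those of weakly expressed genes come out too small. *Dio3* fell by 3.11 (standard error 0.12, adjusted p = 8.6e-07 from limma), *Rian* by 2.89, *Mirg* by 2.62, *Meg3* by 2.31 and *Dlk1* by 1.99. Calls required at least 1.3-fold and an adjusted p (Benjamini-Hochberg) under 0.05. The 5 of 5 members called lower stand against 35.3% of the 13001 genes tested. The median change of the members was -2.62, and that of all genes tested was -0.10. Only 1.02% of the genes fell by more than *Dio3*, and 4.90% by more than *Dlk1*.

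In BAT siH19 cells the falls were 2.19 for *Dio3*, 2.14 for *Rian*, 2.06 for *Mirg*, 1.82 for *Meg3* and 1.41 for *Dlk1*, with adjusted p of at most 1.8e-05 from limma. Of all genes tested there, 29.8% were called lower.

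In vWAT siCtrl cells *Dlk1* fell most. It was at 10.4, 10.9 and 10.1 FPKM at d3, 20.0% of its d0 level, a log2 fall of 2.21 (standard error 0.11, adjusted p = 5.8e-06 from limma). *Dio3* was at 44.9, 58.2 and 52.8 FPKM (26.8%), a fall of 1.89. *Mirg* fell by 1.79 and *Rian* by 1.60. *Meg3* fell least, to 52.6, 67.3 and 45.7 FPKM, and kept 51.6% of its d0 level (log2 change -0.96, standard error 0.14, adjusted p = 0.00082 from limma). In the background, 23.9% of genes were called lower. In vWAT siH19 cells the falls were 1.94 (*Dio3*), 1.91 (*Dlk1*), 1.72 (*Mirg*), 1.59 (*Rian*) and 0.75 (*Meg3*), against 24.5% of all genes.

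*Rtl1* had 0.18 to 0.29 FPKM in BAT siCtrl at d0 and 0.0073 to 0.046 FPKM at d3. In vWAT siCtrl it had 0.16 to 0.26 FPKM at d0 and 0.025 to 0.13 FPKM at d3. These ranges did not overlap between days, but the values are too low to be read as a fold change.

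**Figure D2:**
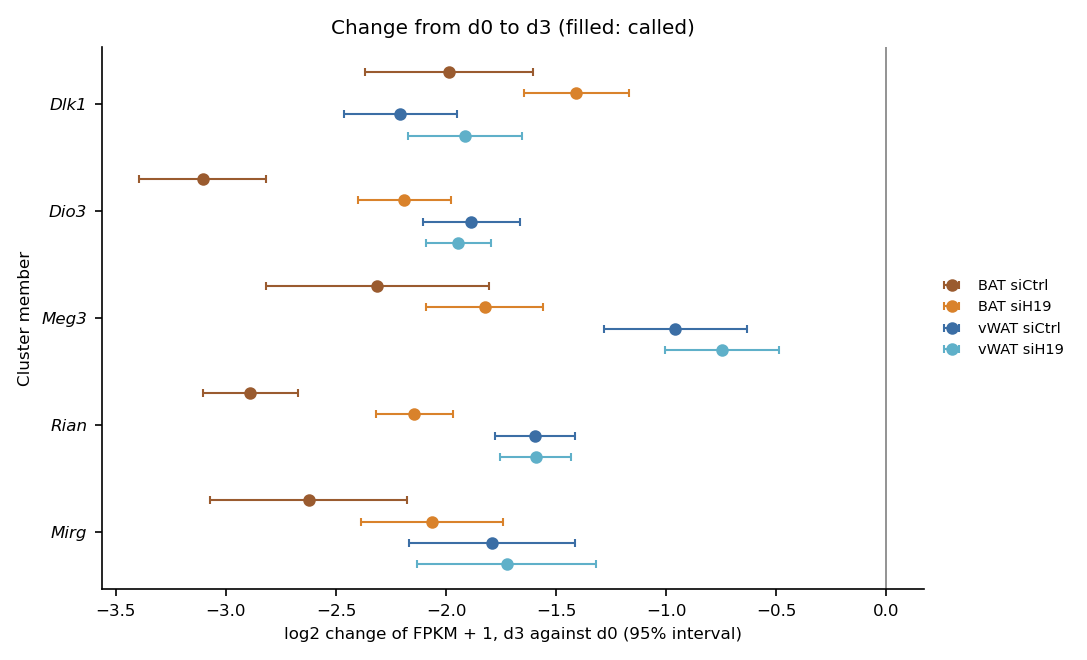
log2 change of FPKM + 1 from d0 to d3 (horizontal axis) of the 5 members tested (vertical axis), in BAT and vWAT cells with siCtrl or siH19, with the 95% interval from limma and filled points for called changes. All 20 points are filled and lie below 0, and the BAT siCtrl points of all members but *Dlk1* lie furthest to the left.

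The size of the fall differed between depots for 4 members. The interaction of depot and day in siCtrl cells, fitted on 12 libraries, was -1.35 for *Meg3* (adjusted p = 0.0019), -1.29 for *Rian* (8.3e-06), -1.22 for *Dio3* (9.8e-05) and -0.83 for *Mirg* (0.021), all from limma, where a negative value is a larger fall in BAT. For *Dlk1* it was 0.22, with a 95% interval from -0.24 to 0.68 (adjusted p = 0.41 from limma). Interactions were called at an adjusted p under 0.05 with no minimum fold, and 28.1% of the 14111 genes tested were called negative. The call for *Mirg* was lost without vWAT siCtrl d3 replicate 2 (adjusted p = 0.0502).

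Adipocyte genes rose with the same step. All 8 adipocyte markers on the list were called higher at d3 in both depots, against 29.9% of all genes in BAT siCtrl and 26.3% in vWAT siCtrl. Their summed FPKM went from a range of 3171 to 3448 at d0 to one of 38356 to 40089 at d3 in BAT siCtrl, and from 4167 to 4169 at d0 to 19580 to 20565 at d3 in vWAT siCtrl. Of the 7 markers of adipocyte precursors, 5 fell and 1 rose in BAT, and 4 fell and 2 rose in vWAT. Their sum went from 1065 to 1194 FPKM to 364 to 402 FPKM in BAT siCtrl and from 521 to 588 FPKM to 670 to 751 FPKM in vWAT siCtrl. In vWAT the 5 mesothelial markers all fell, from a sum of 161 to 187 FPKM to one of 26.7 to 34.7 FPKM. In BAT the 5 smooth muscle and pericyte markers all fell, and their sum went from 3067 to 3347 FPKM to 435 to 593 FPKM. Of the 4 markers of cycling cells, 3 fell in BAT, with a sum of 107 to 111 FPKM at d0 and 61.8 to 71.0 FPKM at d3, and 1 fell in vWAT, with sums of 132 to 142 FPKM and 103 to 112 FPKM. The macrophage markers had a higher sum at d3 in vWAT (464 to 506 FPKM against 287 to 318 FPKM), where 2 of 6 rose and 4 fell, while in BAT 4 of 5 tested fell and the sums overlapped. The part of these cell types in the changes of the cluster was not tested, and in cultures measured as a whole, fewer cells of a type and less RNA per cell cannot be told apart.

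At d0, *Dio3* was the only member called between depots. In siCtrl cells it had a mean of 88.5 ± 11.6 FPKM (SD, n = 3) in BAT and 194 ± 6.50 FPKM (SD, n = 3) in vWAT, a log2 difference of -1.13 (standard error 0.092, adjusted p = 0.00012 from limma). Of all genes, 21.0% were called lower in BAT. *Meg3* had 55.8 to 95.6 FPKM in BAT and 101 to 113 FPKM in vWAT. Its difference of -0.48 (95% interval -0.93 to -0.036) was not called (adjusted p = 0.073 from limma). Without BAT siCtrl d0 replicate 3 it was called (-0.65, adjusted p = 0.026 from limma). The differences of *Dlk1*, *Mirg* and *Rian* were -0.19, -0.18 and 0.11, with 95% intervals from -0.49 to 0.10, from -0.68 to 0.31 and from -0.036 to 0.26. Markers of other cells differed between the depots as well. All 5 mesothelial markers were lower in BAT siCtrl at d0, with a sum of 4.86 to 5.90 FPKM against 161 to 187 FPKM in vWAT and with *Upk3b* and *Upk1b* at 0 in all 3 BAT libraries. The macrophage markers summed to 131 to 163 FPKM against 287 to 318 FPKM, with 5 of 6 lower. Of the smooth muscle and pericyte markers, 4 of 5 were higher in BAT, and of the precursor markers 2 of 7 were higher and 5 lower. Their part in the difference of *Dio3* was not tested.

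At d3, 4 of the 5 members were lower in BAT siCtrl than in vWAT siCtrl cells. *Dio3* had 9.39 ± 1.22 FPKM against 52.0 ± 6.71 FPKM (SD, n = 3 each), a difference of -2.35 (standard error 0.12, adjusted p = 7.5e-06 from limma). *Meg3* had 14.7 ± 2.49 FPKM against 55.2 ± 11.1 FPKM (SD, n = 3 each), a difference of -1.84. *Rian* (-1.18) and *Mirg* (-1.02) were also called. *Dlk1* was nearly level, at 10.9 ± 2.54 FPKM in BAT and 10.5 ± 0.389 FPKM in vWAT (SD, n = 3 each), with a difference of 0.029 and a 95% interval from -0.33 to 0.38. Of all genes, 32.1% were called lower in BAT.

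Marker lists of other cells differed between the depots at d3 too. In BAT siCtrl 4 of 5 mesothelial markers were called lower, with a sum of 1.25 to 3.43 FPKM against 26.7 to 34.7 FPKM in vWAT. All 5 macrophage markers tested of 6 were lower (126 to 158 FPKM against 464 to 506 FPKM), as were the 4 tested of the 5 smooth muscle and pericyte markers (435 to 593 FPKM against 971 to 1170.4 FPKM) and the 4 of cycling cells (61.8 to 71.0 FPKM against 103 to 112 FPKM). Of the 7 precursor markers, 6 were lower and 1 higher in BAT, with a sum of 364 to 402 FPKM against 670 to 751 FPKM. The skeletal myoblast markers had a higher sum in BAT (26.8 to 33.1 FPKM against 9.66 to 14.3 FPKM), with *Myf5* and *Pax7* below 1 FPKM in both depots. All 8 adipocyte markers were higher in BAT, with a sum of 38356 to 40089 FPKM against 19580 to 20565 FPKM. Their part in the differences of the members was not tested.

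The median gene was itself 0.13 (d0) and 0.16 (d3) lower in BAT, and trimmed-mean scaling moved it by 0.14 and 0.18. This changed the balance of all calls, from 2162 higher and 4216 lower to 3192 and 2984 at d3 and from 1343 and 2753 to 1966 and 1833 at d0. The members' calls were the same under it.

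In BAT cells at d3, all 5 members tested were higher with siH19 than with siCtrl. The siCtrl libraries are those of the fall to d3 and of the depot comparison above, so that these comparisons are not independent. *Rian* had 66.6, 56.4 and 64.0 FPKM in siH19 and 30.5, 27.0 and 33.6 FPKM in siCtrl. *Dio3* had 18.0, 15.1 and 19.2 FPKM in siH19, against at most 10.8 FPKM in siCtrl. *Dlk1* had 20.2, 16.5 and 15.8 FPKM, against at most 13.7 FPKM. The noncoding *Meg3* had 21.3, 21.6 and 22.8 FPKM (at most 17.4 FPKM in siCtrl), and *Mirg* 1.94, 2.60 and 2.86 FPKM (at most 1.43 FPKM). None of the 5 genes had overlapping groups, and 24.2% of the genes tested were separated in this direction.

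*Rian* rose by 1.01 on the log2 scale (standard error 0.097, adjusted p = 0.0028 from limma). *Dio3* rose by 0.83 (standard error 0.12, adjusted p = 0.0070 from limma). *Dlk1* rose by 0.66 (adjusted p = 0.043), *Mirg* by 0.61 (adjusted p = 0.028) and *Meg3* by 0.56 (adjusted p = 0.022), all from limma. The ratio of mean FPKM, siH19 over siCtrl, was 2.05 for *Rian*, 1.96 for *Mirg*, 1.86 for *Dio3*, 1.61 for *Dlk1* and 1.49 for *Meg3*. The weakly expressed *Mirg* thus ranks higher by this ratio than on the log2(FPKM + 1) scale. Of the 12500 genes tested, 6.39% were called higher. The median change was 0.66 over the members and 0.05 over all genes. All 5 members were still below their d0 level in siH19 cells, at 36.5% for *Dlk1*, 27.1% for *Meg3*, 22.4% for *Rian*, 21.1% for *Dio3* and 18.3% for *Mirg*.

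The calls of *Rian* and *Dio3* held in all 6 fits that left out 1 library, with adjusted p of at most 0.014 and 0.030. Those of *Dlk1* (adjusted p 0.021 to 0.11), *Meg3* (0.012 to 0.063) and *Mirg* (0.026 to 0.095) held in 1, 1 and 2 of the 6, so that leaving out any single library of either group ended at least 1 call. Trimmed-mean scaling ended the call of *Dlk1* (0.59, adjusted p = 0.055) and changed the balance of all calls from 799 higher and 272 lower to 575 and 478.

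*Rtl1* was at 0.046 to 0.11 FPKM in siH19 and 0.0073 to 0.046 FPKM in siCtrl in BAT cells at d3. The 2 ranges meet without overlap, and both lie far below 1 FPKM.

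None of the 5 members was called in the other 3 settings, where *H19* was lowered as well, but from different starting levels. At d3 the mean of *H19* was 89.8 FPKM in siCtrl and 13.7 FPKM in siH19 in BAT. In vWAT at d3 these means were 8.59 and 0.53 FPKM. Every BAT siH19 library at d3 thus held more *H19* than any vWAT siCtrl library at d3. Whether the depot difference in the effect of siH19 depends on these levels was not tested. In BAT at d0, siH19 and siCtrl values were intermixed for all members but *Rian*. *Rian* had 295, 268 and 273 FPKM in siH19, above the 217 to 248 FPKM of siCtrl, with a log2 change of 0.27 (95% interval 0.12 to 0.42) and an adjusted p of 0.076 from limma. Such a separation was found for 10.6% of genes, and 1.94% of genes were called in either direction. By unadjusted p, *Rian* was the only one of the 5 members under 0.05 in this setting, against 2482 of the 12651 genes tested.

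In vWAT at d0 the changes ran from -0.20 (*Meg3*) to 0.031 (*Dio3*), and 1.53% of genes were called. *Meg3*, with a 95% interval of -0.38 to -0.026 and an adjusted p of 0.23 from limma, was the only member with an unadjusted p under 0.05. Of the 13063 genes tested there, 2303 had such a p. In vWAT at d3 the changes of the members ran from -0.063 (*Rian*) to 0.12 (*Dlk1*), and 0.0305% of genes, or 4 of 13097, were called (1315 at an unadjusted p under 0.05, among them 0 members). There, *Dio3* had 46.3, 54.1 and 51.9 FPKM in siH19, which overlapped the 44.9 to 58.2 FPKM of siCtrl. The 95% intervals of the vWAT d3 changes reached up to 0.37 for *Dlk1*, 0.39 for *Meg3*, 0.34 for *Mirg*, 0.22 for *Dio3* and 0.13 for *Rian*.

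**Figure D3:**
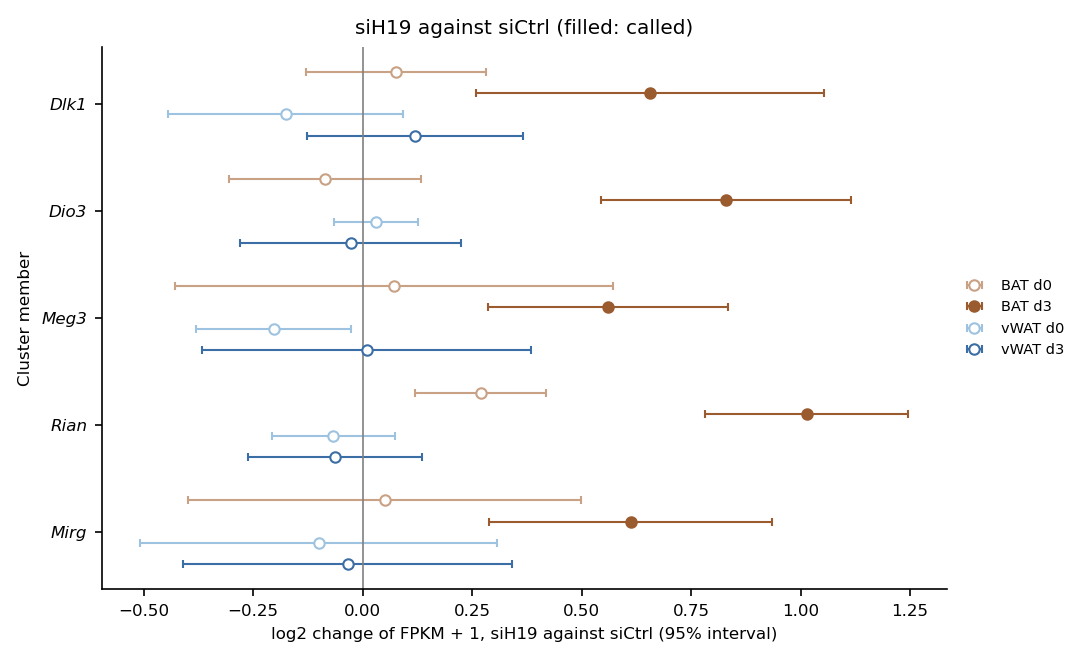
log2 change of FPKM + 1 with siH19 against siCtrl (horizontal axis) of the 5 members tested (vertical axis) in BAT and vWAT cells at d0 and d3, with the 95% interval from limma and filled points for called changes. The 5 BAT d3 points are filled and lie between 0.56 and 1.01, and the 15 other points are open.

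Whether the effect of siH19 itself differed was tested with interactions. At d3 the effect was larger in BAT than in vWAT for *Rian*, by 1.08 (standard error 0.14, adjusted p = 0.0020 from limma), and for *Dio3*, by 0.86 (standard error 0.17, adjusted p = 0.011 from limma). For *Mirg*, *Meg3* and *Dlk1* the interactions were 0.65, 0.55 and 0.54 and were not called (adjusted p of 0.087, 0.13 and 0.14 from limma). *Mirg* was called without vWAT siH19 d3 replicate 2 (0.78, adjusted p = 0.043 from limma), and *Dlk1* without BAT siCtrl d3 replicate 1 (0.70, adjusted p = 0.034 from limma). Of 13762 genes, 7.02% were called positive (966 against 485 negative, and 615 against 781 after trimmed-mean scaling).

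Within BAT the effect was larger at d3 than at d0 for *Dio3*, by 0.92 (standard error 0.16, adjusted p = 0.0062 from limma), and for *Rian*, by 0.74 (standard error 0.12, adjusted p = 0.0049 from limma). *Dlk1* (0.58), *Mirg* (0.56) and *Meg3* (0.49) were not called. Without BAT siCtrl d3 replicate 1, *Dlk1* was called (0.74, adjusted p = 0.023 from limma), and without BAT siCtrl d0 replicate 2, *Mirg* (0.76, adjusted p = 0.044 from limma). Of 13575 genes, 7.79% were called positive (1058 against 172 negative, and 466 against 364 after trimmed-mean scaling, which moved the median gene by -0.11). Both interactions use the same 6 BAT libraries at d3 as the comparison of siH19 with siCtrl.

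Markers of other cells moved in BAT at d3 as well, where 8.57% of all genes were called in either direction. All 5 tested of the 7 precursor markers were called higher in siH19, and their sum was 601 to 666 FPKM against 364 to 402 FPKM in siCtrl. Among the 7 brown fat markers, 4 were called lower (*Ucp1*, *Cidea*, *Ppara* and *Ppargc1a*), with a sum of 39.5 to 42.0 FPKM against 71.5 to 91.5 FPKM. By limma, 0 of the 8 adipocyte markers were called, but 7 had lower values at an unadjusted p under 0.05. Of all 12500 genes tested, 3913 had such a p in either direction. The 8 adipocyte markers had a sum of 34870 to 37206 FPKM against 38356 to 40089 FPKM. The whole smooth muscle and pericyte list had a sum of 1020 to 1227 FPKM against 435 to 593 FPKM. Its *Acta2* and *Tagln* rose, and *Pdgfrb* was also higher at an unadjusted p under 0.05 by limma, while *Myh11* and *Rgs5* stayed below 1 FPKM. The macrophage markers summed to 79.7 to 90.4 FPKM against 126 to 158 FPKM, with 2 of 4 tested lower, and those of cycling cells to 85.2 to 97.1 FPKM against 61.8 to 71.0 FPKM, with 1 of 4 higher. The skeletal myoblast markers summed to 36.9 to 45.6 FPKM in siH19 against 26.8 to 33.1 FPKM in siCtrl. Of these, 2 were higher at an unadjusted p under 0.05 by limma, while *Myf5* and *Pax7* stayed below 1 FPKM. No marker of these lists was at 0 in all 3 libraries of siH19 or of siCtrl in BAT at d3. Marker sums also differed in the settings without a called member. The adipocyte sum at d0 was 1597 to 2135 FPKM in siH19 against 3171 to 3448 FPKM in BAT, and 2448 to 2763 against 4167 to 4169 FPKM in vWAT. In vWAT at d3 it was higher with siH19 (21583 to 22781 against 19580 to 20565 FPKM). The part of these markers in the rise of the cluster was not tested.

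The proportion of maternally to paternally expressed members differed between d0 and d3 in vWAT siCtrl cells, while in BAT siCtrl cells the ranges of the days overlapped. The ratio of the summed MEGs to the summed PEGs was 2.42 ± 0.346 in BAT siCtrl at d0 and 2.30 ± 0.239 at d3 (SD, n = 3 each). In vWAT siCtrl it was 1.36 ± 0.0443 at d0 and 2.06 ± 0.215 at d3 (SD, n = 3 each), and the d0 and d3 ranges did not overlap. An exact two-sided permutation test of 3 against 3 libraries cannot go below p = 0.1, which is the value here.

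*Dio3* and *Dlk1*, the PEGs at either end of the cluster, differed between depots in their ratio. It was 1.98, 1.87 and 1.98 in BAT siCtrl at d0 and 0.659, 0.967 and 1.05 at d3. In vWAT siCtrl it was 4.43, 3.80 and 3.08 at d0 and 4.31, 5.36 and 5.24 at d3. The BAT and vWAT ranges did not overlap on either day (exact two-sided permutation p = 0.1 for both).

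The ratio of *Meg3* to *Dlk1* separated vWAT at d3 from the other groups. It was 4.53 to 6.20 in vWAT siCtrl and 3.64 to 5.72 in vWAT siH19 at d3, while all libraries of the other 6 groups had 1.02 to 2.23. *Rian* over *Meg3* fell with differentiation in siCtrl cells of both depots, from 3.10 ± 0.855 to 2.09 ± 0.137 in BAT and from 2.00 ± 0.123 to 1.29 ± 0.139 in vWAT (SD, n = 3 each), without overlap of the days. In BAT at d3 it was higher in siH19 (2.61 to 3.13) than in siCtrl, without overlap (exact two-sided permutation p = 0.1). *Mirg* over *Rian* showed overlapping siH19 and siCtrl ranges in all 4 settings.

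**Figure D4:**
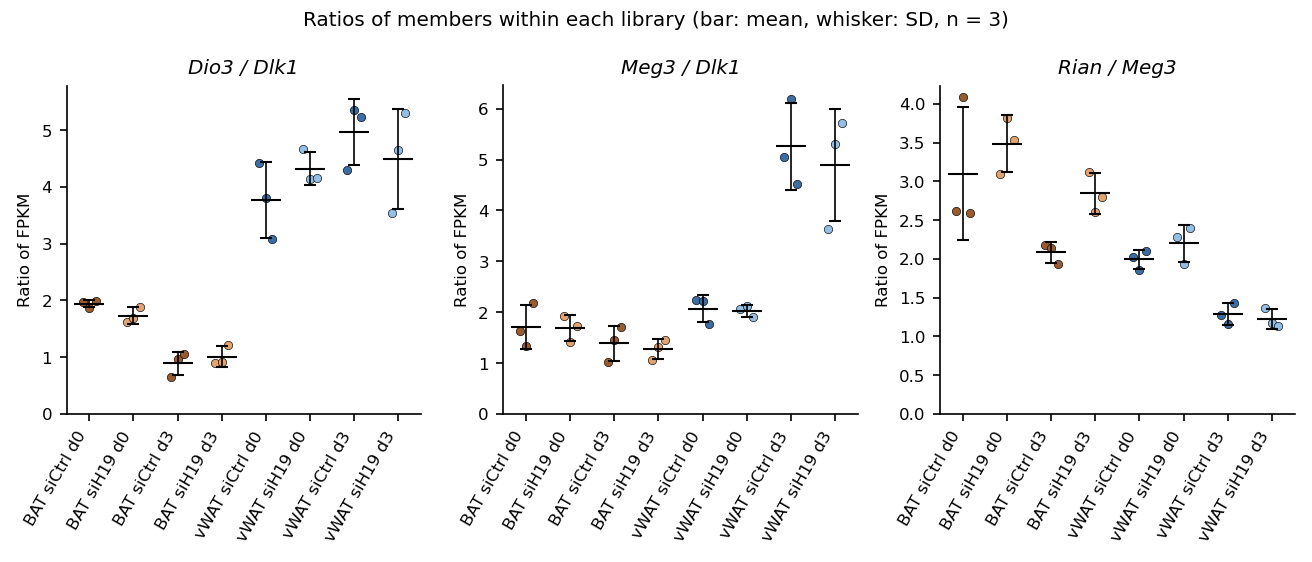
Ratios of FPKM within each library (vertical axes, from 0) of *Dio3* to *Dlk1*, *Meg3* to *Dlk1* and *Rian* to *Meg3* in the 8 groups (horizontal axes), with mean (bar) and SD (whisker, n = 3). *Dio3* to *Dlk1* separates the depots on both days, and *Meg3* to *Dlk1* is highest in the vWAT libraries at d3.

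Across the 24 libraries, which share depots and days, log2 levels of the members were correlated with Pearson r from 0.71 (*Meg3* and *Dlk1*) to 0.97 (*Rian* and *Mirg*). After the group means were subtracted, r was from 0.072 (*Dlk1* and *Dio3*) to 0.59 (*Meg3* and *Rian*).

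Between *Dlk1* and *Dio3* the table holds 98 further genes, of which 87 were listed at 0 in all libraries. All 23 snoRNA genes were listed at 0, as were 60 of the 67 microRNA genes. The other 7 were above 0 in at most 4 libraries each. *Mir433* was listed at 24.4 and 9.0 FPKM in 2 BAT siCtrl d0 libraries, 7.85 FPKM in a vWAT siCtrl d0 library and 7.0 FPKM in a vWAT siH19 d3 library. *Mir3072* was above 0 in 3 d0 libraries (39.0, 43.6 and 35.7 FPKM). The values come from genes so short that few fragments can give them, and no comparison was made.

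*Gm26906*, which lies on the minus strand over the 3' end of *Meg3*, was the only further gene at 1 FPKM or more in all 24 libraries. It had 14.9, 8.77 and 15.7 FPKM in BAT siCtrl at d0 and 1.98, 2.13 and 2.88 FPKM at d3, a log2 fall of 2.05. In BAT siH19 at d3 it had 3.26, 5.06 and 3.72 FPKM (0.58, adjusted p = 0.061 from limma, not called). Whether the counting used strand is not given in the sources used here, and without it reads of *Gm26906* and *Meg3* cannot be told apart. The same holds for *Rtl1* and the RNA opposite to it.

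The 10 nearest protein-coding neighbours, 5 on each side, are given for comparison. By limma, 0 of the 8 tested were called with siH19 in BAT at d3, against 8.57% of all genes. An unadjusted p under 0.05 was found for 2 of the 8, against 3913 of all 12500 genes tested. The changes of the 8 ran from -0.32 (*Wars*, encoding a tRNA synthetase) to 0.16 (*Dync1h1*, encoding a dynein chain). *Wars* passed the adjusted threshold (95% interval -0.46 to -0.17, adjusted p = 0.018 from limma) but not the minimum fold. It was called in the interactions of siRNA with depot at d3 (-0.35, adjusted p = 0.019 from limma) and with day in BAT (-0.45, adjusted p = 0.0046 from limma), both opposite in sign to those of the members. From d0 to d3 in BAT siCtrl, 4 of 9 tested rose and 1 fell, against 29.9% and 35.3% of all genes. The one that fell was *Begain*, the nearest protein-coding gene before *Dlk1*, by 1.64 (standard error 0.10, adjusted p = 9.3e-06 from limma). *Begain* also fell in vWAT siCtrl, by 1.08 (adjusted p = 0.00010 from limma). There the chaperone gene *Hsp90aa1* fell by 0.93 and *Slc25a29*, encoding a mitochondrial carrier, rose by 1.42, so that 2 of 9 fell and 1 rose, against 23.9% and 26.3% of all genes. *Ppp2r5c*, the nearest protein-coding gene after *Dio3*, which encodes a phosphatase subunit, had a change of -0.047 in BAT and 0.14 in vWAT and was not called.

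**Figure D5:**
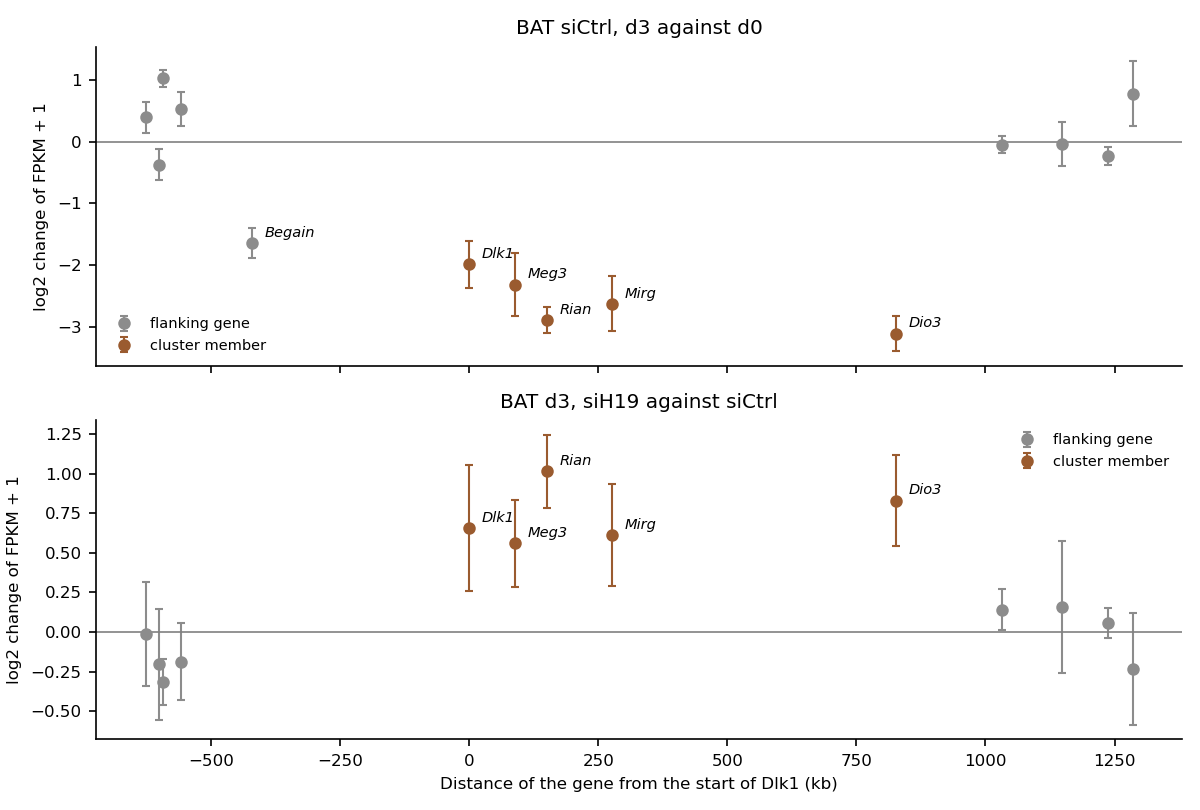
log2 change of FPKM + 1 with the 95% interval from limma (vertical axes) against the distance of a gene from the start of *Dlk1* in kb (horizontal axis), for the 5 members tested and their flanking genes, from d0 to d3 in BAT siCtrl (top) and with siH19 in BAT at d3 (bottom). The members lie between -3.11 and -1.99 in the top panel, and between 0.56 and 1.01 in the bottom panel, where the flanking genes lie between -0.32 and 0.16.

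The Notch pathway, to which *DLK1* is related in structure, was followed through 23 ligands, receptors, cofactors and targets. Of the 15 tested from d0 to d3 in BAT siCtrl, 10 fell and 1 rose, against 35.3% and 29.9% of all genes, with a median change of -0.87 against -0.10 over all genes. *Dlk2*, the paralogue of *Dlk1*, fell by 2.38, the Notch target *Hes1* by 2.14, the coactivator *Maml2* by 1.41 and the DNA-binding effector *Rbpj* by 1.38. With siH19 in BAT at d3, 1 of 14 tested was called, near the 8.57% of all genes. It was *Hes1*, which rose by 0.51 (standard error 0.089, adjusted p = 0.013 from limma). At an unadjusted p under 0.05, 5 of the 14 were higher and 1 was lower, against 3913 of all 12500 genes in either direction. In vWAT siCtrl 4 of 15 fell and 3 rose from d0 to d3, near the 23.9% and 26.3% of all genes.

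Of the 5 genes listed as targets of DLK1 in preadipocytes, *Sox9*, a transcription factor that holds preadipocytes undifferentiated, fell by 2.94 from d0 to d3 in BAT siCtrl and rose by 0.48 with siH19 at d3 (standard error 0.094, adjusted p = 0.019 from limma). *Fn1*, encoding fibronectin, fell by 2.37 and changed by 0.54 with siH19, which was not called (adjusted p = 0.17 from limma). The other 3 were not called in either comparison.

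Thyroid hormone handling, the pathway of *Dio3*, was represented by 19 other genes, of which 18 were in the table used here. From d0 to d3 in BAT siCtrl, 9 of 15 tested rose and 5 fell, where 29.9% of all genes rose and 35.3% fell. In vWAT siCtrl 8 of 16 rose and 3 fell, where 26.3% of all genes rose and 23.9% fell. The counts that fell are thus near or below those shares. The median change of the list was 0.41 in BAT and 0.39 in vWAT, against -0.10 and 0.011 over all genes. The hormone-responsive gene *Thrsp* rose most, by 8.56 in BAT and 7.37 in vWAT. Triiodothyronine, a thyroid hormone, was in the BAT media and not in those of vWAT. In BAT the day and the added hormone can therefore not be told apart. *Dio2*, whose product activates the hormone, had 4.44 to 5.71 FPKM at d0 and 6.62 to 34.4 FPKM at d3 in BAT siCtrl, and went from 14.0 to 17.6 FPKM to 0.53 to 4.20 FPKM in vWAT siCtrl. The receptor *Thrb* rose by 1.68 in BAT. With siH19 in BAT at d3, *Thrsp* was the only called gene of 14 tested, near the 8.57% of all genes, and it was lower by 1.81 (standard error 0.13, adjusted p = 0.0017 from limma).

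Among 12 factors that bind or keep the imprint, 4 fell and 2 rose of the 11 tested from d0 to d3 in BAT siCtrl, and 6 fell and 1 rose in vWAT siCtrl. The 4 of 11 in BAT are near the 35.3% of all genes that fell there, and the 6 of 11 in vWAT stand against 23.9%. The median change of the list was -0.17 in BAT and -0.46 in vWAT, against -0.10 and 0.011 over all genes. *Zfp57*, which protects imprints in the embryo, fell by 2.61 in BAT, from 14.7 ± 3.20 FPKM to 1.60 ± 0.708 FPKM (SD, n = 3 each). The maintenance factors *Uhrf1* and *Dnmt1* fell by 0.94 and 0.81, and *Trim28*, the corepressor recruited by ZFP57, by 0.91. By limma, 0 of the 11 tested were called with siH19 in BAT at d3. An unadjusted p under 0.05 was found for 3 of the 11, against 3913 of all 12500 genes tested.

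The genes most like each member in log2 level over the 24 libraries, among 12845 genes outside the cluster, were *Marcksl1*, *P4ha1* and *Plat* for *Dio3* (Pearson r from 0.990 to 0.995) and *Emp1*, *Dbn1* and *Cald1* for *Rian* (0.993 to 0.994). For *Dlk1* they were *Ttc9*, *Etf1* and *Mical2* (0.984 to 0.985), for *Meg3* *Zdhhc8*, *Bin3* and *Tcf3* (0.980 to 0.984), and for *Mirg* *Qpct*, *Rai14* and *Uaca* (0.980 to 0.981). The libraries share depots and days, so that these values describe the 8 groups more than single libraries.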

How the data were processed

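The authors aligned the reads to GRCm38 with TopHat2 2.0.10 and derived gene values with Cufflinks on Ensembl models, for which the submitters' processing notes name version 2.2.1. They deposited 1 table that names no unit and holds no read counts, and the deposited values were read as FPKM. The notes and the paper differ on read length and on whether the kit was directional. Column sums were 710794 to 841456, and 0 columns were left unused.

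Each comparison was fitted with limma 3.58.1 (R 4.3.3, intensity trend) on log2(FPKM + 1) of its own libraries, over the genes that reached 1 FPKM in 3 or more of them, with Benjamini-Hochberg adjustment over all of these. Genes were called at an adjusted p under 0.05 and at least 1.3-fold, and interactions without a minimum fold. Ratios were compared by exact permutation (scipy 1.17.1). The fit was tested on simulated data. Alternatives were no minimum fold change, a pseudocount of 0.1, no filter, trimmed-mean scaling, 1 fit over 24 libraries, a replicate block, and leaving out each library.

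The members and gene lists were chosen with earlier results of these data known. Genes named were the members, region genes at 1 FPKM or more in at least 3 libraries, 5 neighbours per side, at most 4 called genes with the largest changes per list, and 3 most similar genes per member. Cell type markers are named beside them after their values were seen. *Slc7a5* was not analysed here. A further gene that the rule names is not reported here. Promoters and microRNAs come from RefSeq tables (GRCm38.p6), which matched 5 of the 6 members. Python 3.11.15 was used with numpy 2.4.6, pandas 2.3.3 and matplotlib 3.10.9.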

Additional observations from a re-analysis of the deposited data

Results flagged for a closer look

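Effects that differed between groups by their own interaction term in limma are listed here. The effect of siH19 at d3 was larger in BAT than in vWAT for *Dio3* (log2 difference 0.86) and *Rian* (1.08). Within BAT it was larger at d3 than at d0 for *Dio3* (0.92) and *Rian* (0.74). In siCtrl cells the change from d0 to d3 was more negative in BAT than in vWAT for *Meg3* (-1.35), *Rian* (-1.29), *Dio3* (-1.22) and *Mirg* (-0.83). Groups of 3 libraries are too small for a test of single outlying libraries.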

How the results depend on the processing

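The number of members called with siH19 in BAT at d3 was 5, and 2 with no filter on low values, where more genes share the adjustment. The fits that left out 1 library called 2 to 4. Between depots at d0, 1 member was called, and 2 (*Dio3* and *Meg3*) in 1 fit over 24 libraries, while leaving out 1 library gave 1 to 2. The other 11 counts of called members stayed within 1.5 times under every alternative run.

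Changes near 0 changed sign when 1 library was left out. With siH19 in BAT at d0 these were *Dio3* (-0.17 to 0.0098), *Meg3* (-0.15 to 0.23) and *Mirg* (-0.15 to 0.20). With siH19 in vWAT they were *Mirg* at d0 (-0.24 to 0.017) and, at d3, *Dio3* (-0.13 to 0.057), *Meg3* (-0.12 to 0.16), *Rian* (-0.12 to 0.013) and *Mirg* (-0.17 to 0.063). Between depots they were *Mirg* at d0 (-0.34 to 0.017) and *Dlk1* at d3 (-0.13 to 0.16). None of these was called.

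Samples with the same replicate number did not deviate together (r of their deviations -0.11 to 0.062), and not every sample correlated best with its own number, so the numbers were not read as pairs. With the replicate block, siH19 in BAT at d3 gave 859 called genes in place of 1071 and ended the call of *Mirg* (adjusted p = 0.074), and *Dlk1* gained a call in the interaction of day and siRNA (0.58, adjusted p = 0.038). Counts of called genes depended on the settings where few were called. With siH19 in BAT at d0 the 245 became 395 with no minimum fold change, 35 with no filter, 2 with the block, 526 in 1 fit over 24 libraries and 4 to 74 with 1 library left out. In vWAT at d0 the 200 became 65 with no filter, 2 with the block, 378 in 1 fit and 37 to 122 with 1 library left out. In BAT at d3 the 1071 became 2023 with no minimum fold change and 631 without BAT siCtrl d3 replicate 2, and 2 interaction counts fell as well without that library (1451 to 889 for depot and siRNA, 1230 to 801 for day and siRNA), the former also without vWAT siCtrl d3 replicate 3 (935) or vWAT siH19 d3 replicate 1 (929). Between depots at d0 the 4096 became 6386 with no minimum fold change. In vWAT at d3 the 4 became 0 with the block and 15 in 1 fit, and 1 or 2 in 4 of the fits that left out 1 library. Without counts, the precision that depth gives is unknown.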
